A study of Mus musculus with 18 samples.

Results

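Tanycytes and ependymal cells line the third ventricle of the hypothalamus, and 8 genes known to mark them were followed here across 18 arrays of mouse hypothalamus. They were Rax, Col23a1, Dio2, Gpr50, Crym, Nes, Vim and Foxj1, a list fixed by name out of the 19937 genes with a probeset of a single gene symbol. Each of the 8 had exactly 1 such probeset. Hypothalami were dissected under a microscope from wild-type mice and from mice mutant for Wfs1, which encodes wolframin, a membrane glycoprotein of the endoplasmic reticulum. The strain of both genotypes is written 129SV by the labels of the samples, whereas the text of the series writes 129S6. Age and sex are not given, and neither is whether each array is a separate animal. The p-values therefore measure how arrays differ, which may be partly technical.

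Genotype was labelled in 2 places, by a genotype field (KO or WT) and by the last letters of the sample title (ko or wt), here called the ending. Written with the ending first, they form 4 groups, namely 5 arrays ko/KO, 5 ko/WT, 4 wt/KO and 4 wt/WT, so that the labels agreed on 9 arrays and contradicted each other on 9. Wfs1 itself followed neither label. Its log2 level ran from 7.86 to 8.72 on arrays ending in ko and from 7.89 to 8.61 on those ending in wt. The fields overlapped likewise, from 7.86 to 8.72 for KO and from 7.89 to 8.56 for WT. Every difference below is therefore one between arrays labelled in that way, not between known genotypes. Array medians reached at most 7.19 log2 units. Precision is limited by how many arrays there are.

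Ependymal cells carry motile cilia, whose genes are switched on by the transcription factor Foxj1, and move cerebrospinal fluid. Tanycytes are elongated glia of the ventricle floor and lower walls, which keep features of radial glia, among them the intermediate filaments vimentin and nestin. They are known for making active thyroid hormone, through the deiodinase Dio2, and for relaying signals between cerebrospinal fluid, portal blood and neurons.

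All 8 genes lay above the lower quartile of all probeset values on every array, and the lowest member value was 6.03. Among other genes of these cells, 16 of 18 other tanycyte genes and 30 of 32 other genes of the ependymal cilium were above that quartile on every array. Of the hypothalamic regional markers, 18 of 18 were. So were 13 of 14 thalamic, 11 of 12 cortical and striatal and 7 of 10 pars tuberalis and pituitary markers, so this measure does not tell tissues or cell types apart. Detection calls were not analysed here. In bulk tissue, fewer cells of a type and less RNA per cell cannot be told apart.

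Rax, a homeobox transcription factor of the tanycyte lineage, ranged from 6.52 (wt/KO 1 and ko/WT 4) to 6.94 (ko/WT 1), with a median of 6.69. Its highest value and one of its lowest came from the same label group, ko/WT. Col23a1, a membrane-spanning collagen found in tanycytes, ranged from 7.27 on ko/WT 5 to 7.94 on wt/WT 2, with a median of 7.575. Its 4 values on the wt/WT arrays were 7.68, 7.94, 7.79 and 7.66, against 7.51, 7.82, 7.66, 7.49 and 7.47 on the ko/KO arrays. Those groups overlapped, since ko/KO 2 lay above 3 of the 4 wt/WT arrays and ko/KO 3 equalled the lowest of them.

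Dio2, which converts thyroxine to the active hormone triiodothyronine, was at 7.62, 7.15, 7.73, 7.91 and 7.43 on the ko/WT arrays, the widest group. It was at 7.40, 7.14, 7.38, 7.35 and 7.55 on the ko/KO arrays, at 7.09, 7.29, 7.40 and 7.42 on the wt/KO arrays and at 7.52, 7.31, 7.45 and 7.38 on the wt/WT arrays. The 3 highest values of the series all came from ko/WT arrays, while the array ko/WT 2 was the third lowest. Crym encodes mu-crystallin, a cytosolic protein that binds thyroid hormone, and ranged from 6.96 on ko/WT 5 to 7.62 on ko/KO 2 and wt/WT 2, with a median of 7.39. The array ko/WT 5 was the lowest of the series for both Crym and Col23a1.

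Gpr50, an orphan receptor of the melatonin receptor family, had the widest range of the 8, from 7.59 to 8.56, a 1.96-fold span. It was at 8.49, 8.56, 8.19 and 7.98 on the wt/KO arrays and at 7.93, 7.97, 8.10 and 7.90 on the wt/WT arrays. On the ko/KO arrays it was at 8.06, 8.08, 7.93, 8.09 and 8.37, and on the ko/WT arrays at 8.16, 7.76, 8.26, 7.59 and 8.07. A pair of wt/KO arrays was thus the highest and a pair of ko/WT arrays the lowest. The standard deviation of Gpr50 over the series, 0.24, was above that of 94.3% of all genes, and those of Dio2 (0.20) and Crym (0.20) were above 86.8% and 86.0%.

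The filament genes varied less. Nes, encoding nestin, ranged from 6.03 on ko/KO 5 to 6.51 on ko/KO 1, with a median of 6.295, and its standard deviation of 0.12 was above that of 38.3% of genes. Nes was the dimmest member, its median being above that of 32.4% of all probesets. On the wt/WT arrays its 4 values lay between 6.25 and 6.31. Vim, encoding vimentin, was at 9.36, 9.29, 9.57 and 9.41 on the wt/WT arrays and at 9.62, 9.49, 9.30, 9.58 and 9.64 on the ko/KO arrays. Its range over the series was 1.33-fold, with the highest value, 9.70, on wt/KO 3. Foxj1 was at 7.60, 7.59, 7.59 and 7.40 on the wt/WT arrays and at 7.25, 7.64, 7.33, 7.39 and 7.14 on the ko/KO arrays, which hold both its highest and its lowest value.

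**Figure D1:**
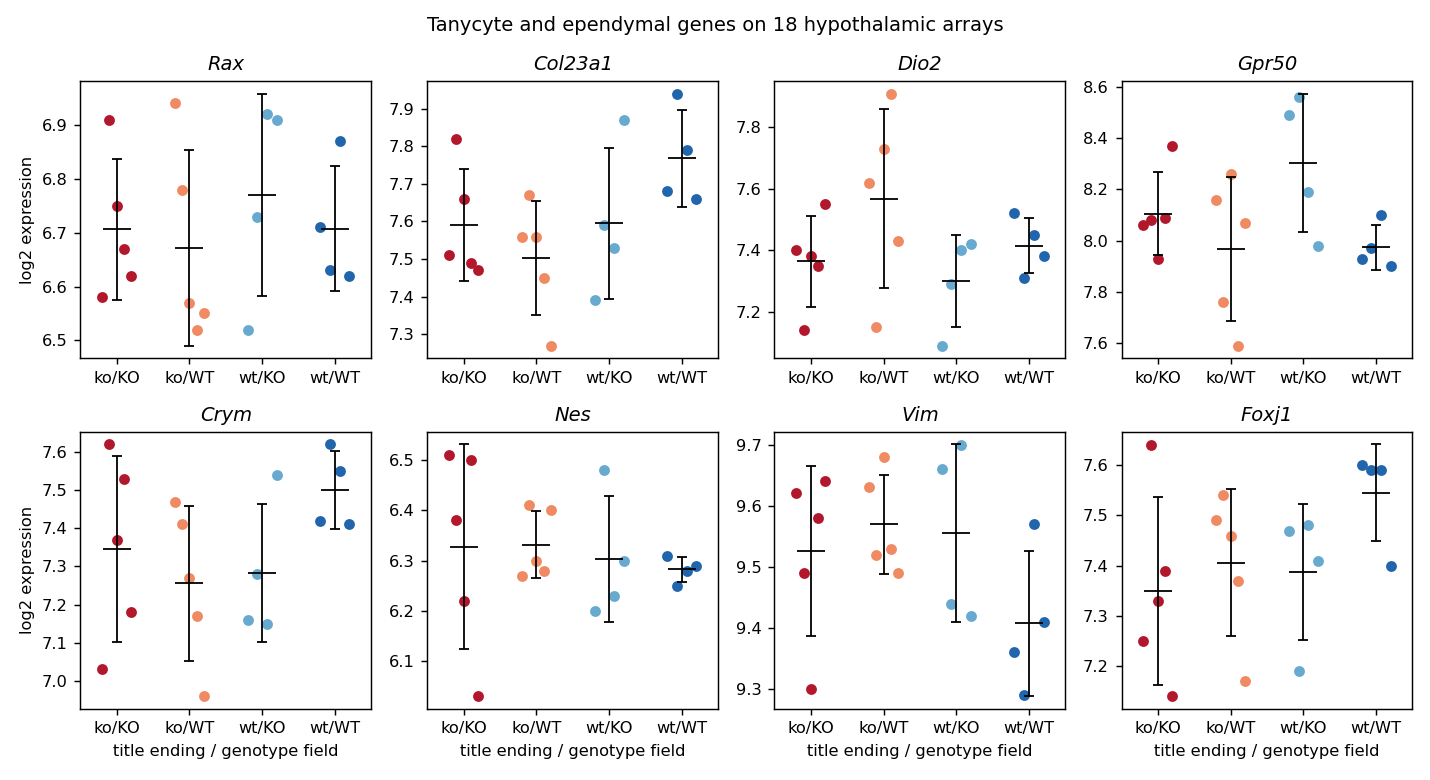
Log2 expression (y axis) of each of the 8 genes on the 18 arrays, grouped by title ending and genotype field (x axis); each point is an array, and the black bar and whiskers are the mean and SD of 5, 5, 4 and 4 arrays. The ko/KO and wt/WT arrays overlap for every gene, and Gpr50 has the widest spread, from 7.59 to 8.56.

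Promoter sequences of RefSeq, each from 250 bases before to 50 after the gene start in build GRCm38.p6, were matched for 5 of the 8 genes. The 3 printed belong to Dio2, which had no r over 0.18 with another member, to the gene most tied to the variation common to the arrays (Col23a1) and to the filament gene that varied with the cilium genes (Vim), as described below. Capitals mark matches, on either strand, to the cyclic AMP response element TGACGTCA, the TATA element TATAAA, the CCAAT element or the GC element GGGCGG, which do not overlap in these windows. The Dio2 sequence is on the minus strand of chr12:90738989-90739288, that of Vim on the plus strand of chr2:13574061-13574360 and that of Col23a1 on the plus strand of chr11:51289670-51289969.
Dio2: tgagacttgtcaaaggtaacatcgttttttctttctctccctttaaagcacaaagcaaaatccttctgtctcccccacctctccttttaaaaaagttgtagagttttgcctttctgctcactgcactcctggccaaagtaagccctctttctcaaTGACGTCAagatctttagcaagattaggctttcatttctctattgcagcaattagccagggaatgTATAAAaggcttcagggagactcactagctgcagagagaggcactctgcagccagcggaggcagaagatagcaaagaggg
Vim: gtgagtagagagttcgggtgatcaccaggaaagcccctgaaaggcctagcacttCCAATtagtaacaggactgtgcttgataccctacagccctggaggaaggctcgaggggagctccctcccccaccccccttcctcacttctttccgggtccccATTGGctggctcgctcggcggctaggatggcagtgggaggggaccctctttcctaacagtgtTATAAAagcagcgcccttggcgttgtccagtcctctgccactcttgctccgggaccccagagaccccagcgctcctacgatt
Col23a1: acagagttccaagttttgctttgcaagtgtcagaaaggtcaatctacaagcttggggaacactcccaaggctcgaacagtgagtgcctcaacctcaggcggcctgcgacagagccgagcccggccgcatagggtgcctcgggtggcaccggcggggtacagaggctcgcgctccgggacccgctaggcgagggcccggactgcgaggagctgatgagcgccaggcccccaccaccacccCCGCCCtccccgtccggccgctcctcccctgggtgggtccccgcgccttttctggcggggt

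In the Dio2 window a full cyclic AMP response element began at position -95 and a TATA element at position -30 relative to the gene start. The former occurred in 1.8% and the latter in 13.6% of the 32851 promoters of the same length. Vim had a TATA element at -32 and 2 CCAAT elements, the latter present in 37.4% of promoters. Col23a1 had 1 match to the GC element, which 35.7% of promoters hold, and its window was 67.7% G and C against 44.7% for Dio2, 59.3% for Vim and a median of 52.7% over all promoters. These are matches of letters and do not show that a factor binds.

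Between the title endings none of the 8 genes passed an adjusted p of 0.05 in limma, as was so for 0% of all genes. At an unadjusted p under 0.05 there were 0 of 8, against 4.63% of all genes. On arrays ending in ko, 5 of the 8 genes were lower and 3 higher. The median of their log2 differences was -0.069, while over all genes it was 0.003 and 51.6% were higher. Col23a1 had a lowest, median and highest level of 7.27, 7.535 and 7.82 with the ending ko and 7.39, 7.67 and 7.94 with the ending wt. Its difference was -0.14 (SE 0.074, n = 10 and 8, limma adjusted p = 0.884). Dio2 reached 7.91 with the ending ko and 7.52 with the ending wt, and its difference was 0.11 (SE 0.088, adjusted p = 0.884). Without ko/WT 4 the difference of Dio2 was 0.059, and without wt/KO 1 it was 0.070. Gpr50 differed by -0.10 (SE 0.10, adjusted p = 0.885), which was -0.043 without wt/KO 2, -0.053 without wt/KO 1 and -0.053 without ko/WT 4. The 95% intervals of the 8 differences all included 0 and lay between -0.32 and 0.29.

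Between the genotype fields 0 of 8 genes passed the adjusted threshold, again against 0% of all genes. Gpr50 was the only member with an unadjusted p under 0.05, 1 of 8, where 6.95% of all genes had one. Its lowest, median and highest levels were 7.93, 8.09 and 8.56 on the 9 KO arrays and 7.59, 7.97 and 8.26 on the 9 WT arrays. The groups overlapped, and the difference was 0.22 towards KO (SE 0.093, 95% interval 0.031 to 0.42, limma unadjusted p = 0.025, adjusted p = 0.694). A two-sided exact permutation test gave p = 0.0455 for Gpr50 alone, unadjusted. Dio2 differed by -0.16 (SE 0.083, adjusted p = 0.694), with levels up to 7.55 on KO arrays and up to 7.91 on WT arrays.

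On the arrays whose labels agreed, Foxj1, Col23a1 and Crym had lower means and Gpr50 and Vim higher means with ko/KO than with wt/WT, and none passed the test. The differences were -0.195 for Foxj1 (SE 0.098, n = 5 and 4, limma adjusted p = 0.467), -0.18 for Col23a1 (SE 0.093, adjusted p = 0.479), -0.154 for Crym (SE 0.11, adjusted p = 0.589) and 0.12 for Vim (SE 0.090, adjusted p = 0.596). That of Crym was -0.075 without ko/KO 1. At an unadjusted p under 0.05 there were 0 of 8 members, against 11.1% of all genes. On the contradicting arrays Gpr50 was lower with the ending ko by -0.34 on the log2 scale (SE 0.15, n = 5 and 4, 95% interval -0.67 to -0.0039, adjusted p = 0.9998), the 1 member of 8 with an unadjusted p under 0.05 where 2.74% of all genes had one. Its exact permutation p there was 0.127, and its difference on the agreeing arrays was 0.13 the other way, or 0.065 without ko/KO 5. The interaction of ending and field was fitted as a term of its own, and it called 0 of 8 members and 0% of all genes after adjustment (lowest member adjusted p = 0.927), and 0 of 8 against 5.18% without.

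**Figure D2:**
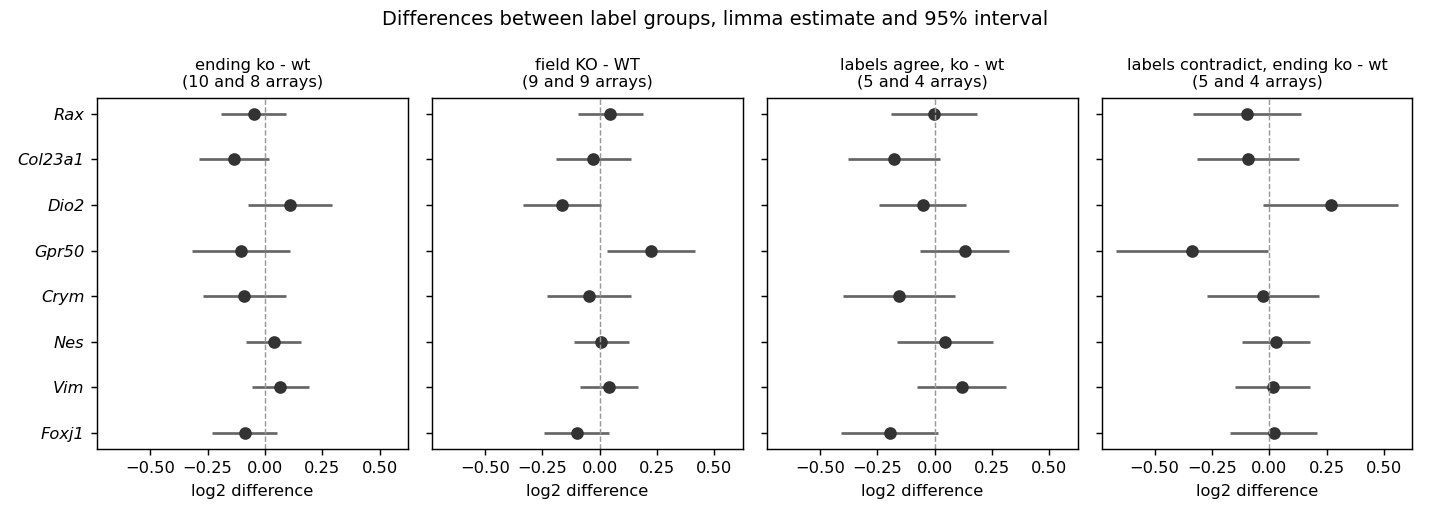
Log2 difference (x axis) of each of the 8 genes (y axis) in 4 comparisons of label groups; points are limma estimates and lines their 95% intervals. Before any adjustment 2 intervals leave out 0, both of Gpr50, from 0.031 to 0.42 between the fields and from -0.67 to -0.0039 on the contradicting arrays.

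Other genes of these cells split about evenly between the endings. Among 18 other tanycyte genes, 9 had a higher mean and 9 a lower mean on arrays ending in ko; their median difference was 0.00112, with 0 called and 1 at an unadjusted p under 0.05. That gene was Adm, encoding adrenomedullin, at -0.14 (SE 0.056, limma adjusted p = 0.884). The 32 other cilium genes split into 16 and 16, their median difference was 0.000625, and 0 were called. Cfap52, which encodes a cilium protein, ranked first of them by p, with a log2 difference of 0.15 (SE 0.072, limma adjusted p = 0.884). Among 13 genes of thyroid hormone handling, such as transporters, receptors and Ttr, the thyroxine carrier, 7 were higher and 6 lower, and 0 were called. The melatonin receptor genes, relatives of Gpr50, differed by 0.14 (Mtnr1a, SE 0.063) and -0.16 (Mtnr1b, SE 0.095), and neither passed. Other intermediate filament genes were higher for 5 of 11 and radial glia and progenitor genes for 7 of 12, with 0 called in each.

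Choroid plexus markers, from the neighbouring tissue of the ventricle, were lower with the ending ko for 11 of 12 and lower with the field KO for 11 of 12. Over all genes 51.6% were higher with the ending ko and 46.6% with the field KO. The choroid plexus markers correlated with each other at a median r of 0.61 over the 18 arrays, so their counts are not independent. Their mean level ran from 6.68 to 6.87 on the 10 arrays with the ending ko and from 6.58 to 7.57 on the 8 with the ending wt. The highest mean was that of wt/WT 3, which also had the highest Ttr of the series, 12.8. On the arrays with agreeing labels 12 of 12 were lower with ko/KO, where 49.5% of all genes were higher. Of the 12, 7 had an unadjusted p under 0.05, where 11.1% of all genes had one, and 0 were called. On the contradicting arrays 7 of 12 were higher with the ending ko, with a median difference of 0.0508. Markers of other regions and cells also split unevenly between the endings. With the ending ko, hypothalamic regional markers were lower for 16 of 18 (median difference -0.0634), thalamic markers higher for 11 of 14 (0.0985) and astrocyte markers higher for 13 of 15 (0.0312), with 0 called in each. With the field KO, hypothalamic regional markers were lower for 9 of 18 and thalamic markers higher for 3 of 14. Astrocyte markers were higher for 10 of 15 with the field KO, again with 0 called in each list. The part of these markers in the differences of the 8 genes was not tested.

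Over the 18 arrays, Col23a1, Crym, Foxj1 and Rax correlated positively with each other, while Dio2 and Nes had r values near 0 or below with them. The 28 pairs of members were each tested with 100000 permutations of the arrays, two-sided, and the p-values were adjusted over the 28 pairs. Col23a1 and Crym correlated at r = 0.84 (permutation p = 1e-05, the smallest these permutations can give, adjusted p = 0.00028) and rho = 0.82 (permutation p = 6e-05). Without the 2 arrays farthest from the median of Col23a1, r was 0.76. Crym and Foxj1 correlated at r = 0.68 (permutation p = 0.0022, adjusted p = 0.0308) and rho = 0.64 (permutation p = 0.00461), with r = 0.55 without the 2 arrays farthest from the median of Crym. These 2 pairs passed the threshold by Pearson's r, and 6 of the 28 pairs did by Spearman's rho.

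Further pairs of the same 4 genes had r between 0.44 and 0.62 with adjusted p values from 0.0579 to 0.244, namely Col23a1 with Foxj1 (0.62) and with Rax (0.54), Crym with Rax (0.56) and Rax with Foxj1 (0.44). By Spearman's rho, Col23a1 with Foxj1 (rho = 0.645) and with Rax (rho = 0.60) did pass, each at a permutation adjusted p = 0.043. Vim ran against Col23a1 at r = -0.56 (permutation p = 0.0168, adjusted p = 0.0968) and rho = -0.60 (permutation p = 0.0089, adjusted p = 0.043). Vim and Gpr50 had r = 0.42 (permutation p = 0.0837, adjusted p = 0.26) but rho = 0.62 (permutation p = 0.00723, adjusted p = 0.043), and r was 0.71 without the 2 arrays farthest from the median of Gpr50. The correlations of Dio2 with the other 7 genes lay between -0.28 and 0.18 and those of Nes between -0.24 and 0.02. Over all 28 pairs the median r was -0.06.

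Many genes outside the list also correlated with these 4 genes. Of the other 19936 genes, 22.8% correlated with Col23a1 at r over 0.5, 17.4% with Crym, 15.5% with Foxj1 and 8.57% with Rax. The correlations among the 4 genes are to be read against those shares. Shares above the r of Col23a1 with Crym (0.84) and of Crym with Foxj1 (0.68) were not computed. The same 4 genes followed the first principal component of all genes over the 18 arrays, which held 29.0% of the variance and correlated beyond 0.5 in size with 48.8% of genes. Their r with that component was 0.89 for Col23a1, 0.82 for Crym, 0.80 for Foxj1 and 0.57 for Rax. It was -0.52 for Vim, -0.45 for Gpr50, -0.10 for Dio2 and 0.00 for Nes. These are descriptions, since the component was built from the same arrays.

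The component ran with brightness. The median r with it was 0.44 among the dimmest 20% of genes and -0.49 among the brightest 20%, and the mean level of the dimmest 20% on an array, which ran from 4.85 to 5.18, correlated with it at 0.94. It was above 0 on 3 of the 10 arrays with the ending ko and on 5 of the 8 with the ending wt. Where the labels agreed, it was 0.264, 0.364, 0.229 and 0.058 on the wt/WT arrays. On the ko/KO arrays it was -0.288, 0.385, -0.012, -0.222 and -0.36. Its part in the differences between endings, on all arrays or on those with agreeing labels, was not tested.

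With the component subtracted, in an alternative chosen after seeing the data, 0 of the 28 pairs passed the adjusted threshold. Col23a1 and Crym then had r = 0.43 (permutation p = 0.0734, adjusted p = 0.708) and Crym and Foxj1 r = 0.08. The closest pair became Vim and Foxj1, at r = 0.59 (permutation p = 0.0103, adjusted p = 0.29) and rho = 0.65 (permutation p = 0.00447), where the deposited levels had r = -0.12 (permutation p = 0.649, adjusted p = 0.875) and rho = -0.11 (permutation p = 0.672). Such changes in r are set by the deposited r of a pair and the r of each gene with the component. They are therefore no separate result.

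**Figure D3:**
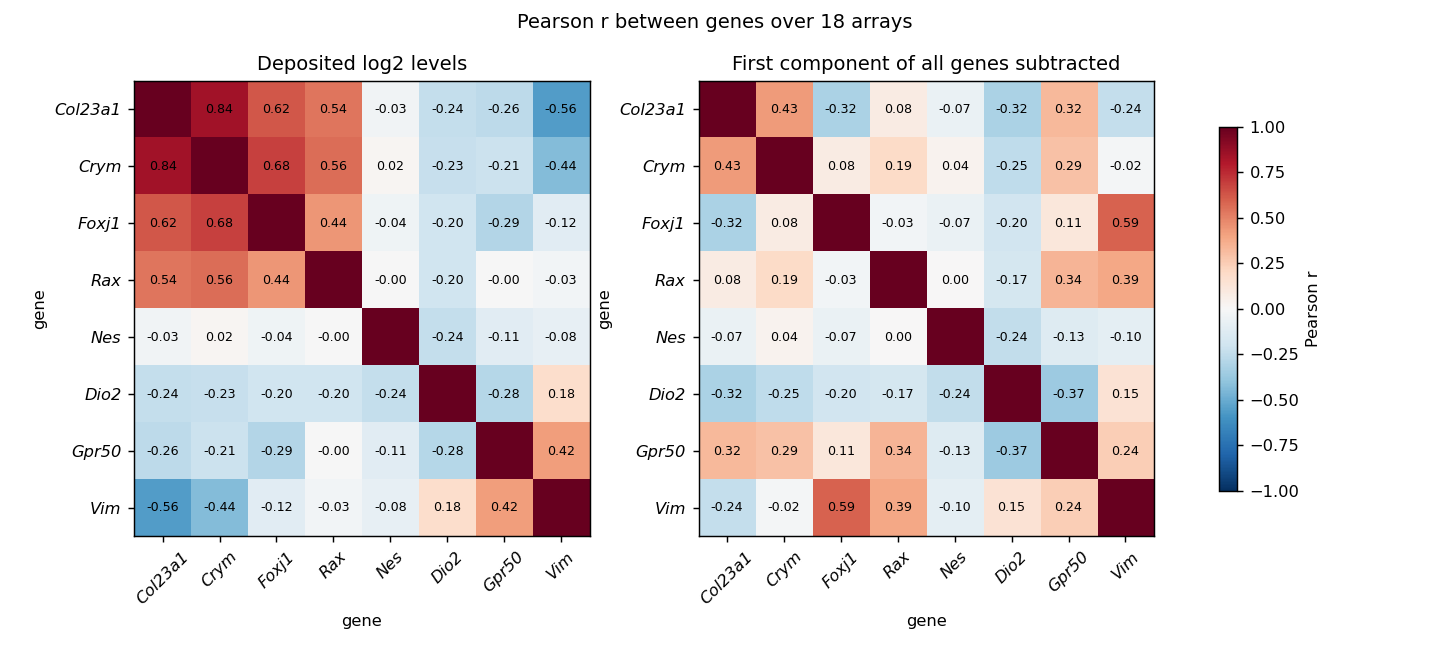
Pearson r (colour and number in each cell) between the 8 genes over 18 arrays, on the deposited log2 levels (left) and with the first principal component of all genes subtracted (right). The block of Col23a1, Crym, Foxj1 and Rax on the left, up to 0.84, is reduced to at most 0.43 on the right, where Vim and Foxj1 reach 0.59.

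Most genes of the ependymal cilium correlated positively with Vim and with Foxj1. On the deposited levels 26 of 32 correlated positively with Vim, with a median r of 0.34 and 11 over 0.5, and 24 of 32 with Foxj1, with a median of 0.30 and 8 over 0.5. At the other end 1 had an r under -0.5 with Vim and 3 with Foxj1. Over all genes 50.5% were positive with Vim (median 0.01) and 56.7% with Foxj1 (median 0.10). With the component subtracted the counts were 28 of 32 for Vim (median 0.33) and 27 of 32 for Foxj1 (median 0.45, against -0.04 over all genes). Markers of other cells had like values on the deposited levels. Astrocyte markers had a median r of 0.32 with Vim, 14 of 15 being positive, and with Foxj1 the median was 0.46 for hypothalamic regional markers and 0.39 for pars tuberalis and pituitary markers. These medians were 0.17, 0.11 and -0.03 with the component subtracted. These correlations share the 18 arrays and are given as a description, and the cilium genes also correlated with each other, at a median r of 0.26. Tmem212, an ependymal membrane protein gene, had r = 0.65 with Vim and 0.35 with Foxj1, and Dnah6, an axonemal dynein heavy chain gene, 0.67 and 0.06. With the component subtracted these were 0.73 and 0.65 for Tmem212 and 0.60 and 0.67 for Dnah6. Both genes were chosen after their values were seen.

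Single cilium genes differed widely. Ccno, which drives centriole amplification, and Trp73, a transcription factor of multiciliated cells, correlated with Foxj1 at 0.76 and 0.73 and with the component at 0.91 and 0.79. With Vim they had r = -0.51 and -0.29. Subtracting the component left an r with Foxj1 of 0.12 and 0.26. The transcription factor genes Rfx2 and Rfx3, which act on cilium genes, had r = 0.57 and -0.62 with Foxj1 and 0.50 and -0.69 with the component. Their r with Foxj1 was 0.33 and -0.15 with the component subtracted; both genes were chosen after their values were seen. For the other 6 members the median r with the cilium genes was -0.21 with Col23a1, -0.19 with Crym, 0.00 with Rax, 0.00 with Dio2, 0.06 with Gpr50 and -0.04 with Nes.

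**Figure D4:**
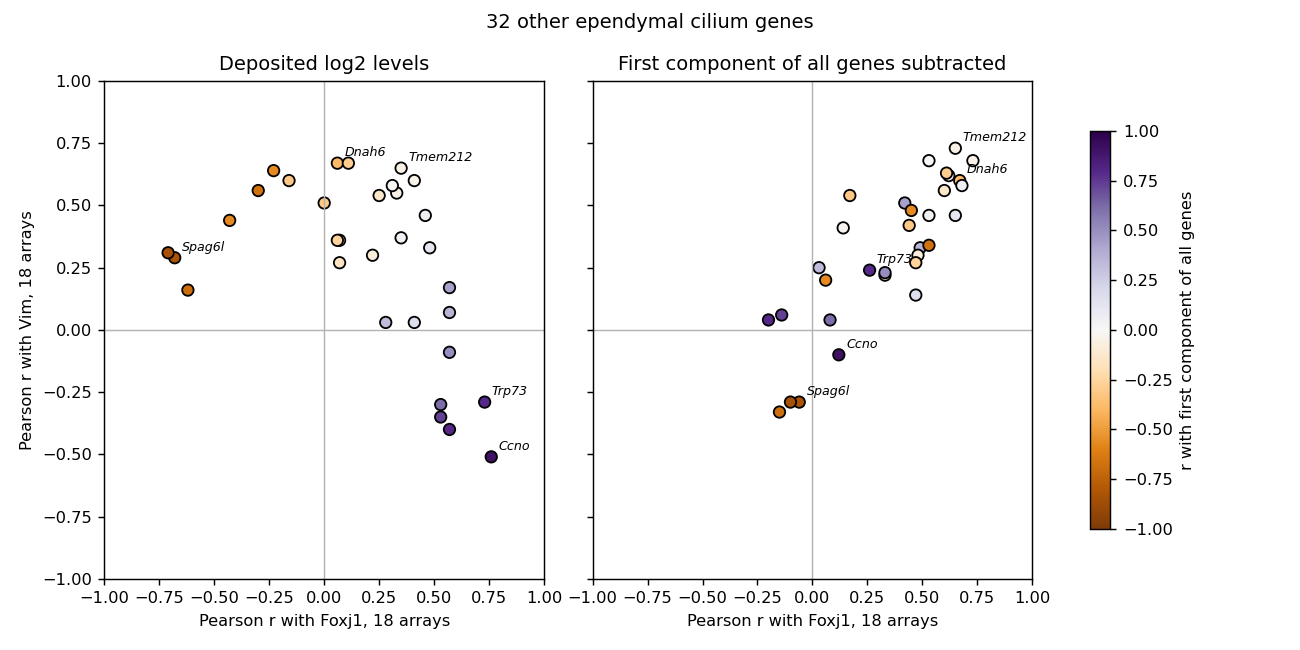
Pearson r over 18 arrays of each of 32 other ependymal cilium genes with Foxj1 (x axis) and with Vim (y axis), on the deposited levels (left) and with the first component of all genes subtracted (right); colour gives the r of each gene with that component. On the right 28 of 32 genes lie above 0 for Vim and 27 of 32 for Foxj1.

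The median r of the other tanycyte genes with each of the 8 genes lay between -0.23 and 0.17, and with each other it was 0.02. With Foxj1, 7 of 18 were positive, the median was -0.21, 6 were under -0.5 and 2 over 0.5. Scn7a, a sodium channel gene, had r = -0.74 with Foxj1 and Cd59a, which encodes a complement inhibitor, -0.69. At the other end Lhx2, a transcription factor that keeps the tanycyte state, had r = 0.70 with Foxj1 and 0.43 with Rax. Scn7a was chosen after its values were seen. Hypothalamic regional markers, mostly transcription factors, correlated with Col23a1 at a median r of 0.60, with 12 of 18 over 0.5, and with Crym at 0.54. With the component subtracted these medians were 0.36 and 0.29, against 0.02 and -0.04 over all genes. Choroid plexus markers had median r values of 0.46 with Col23a1, 0.42 with Crym and 0.39 with Foxj1, which were 0.13, 0.03 and 0.11 with the component subtracted.

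The genes most like each member over the 18 arrays, by Pearson's r over all genes and without predicted genes, differed between the members. For Gpr50 they were Tusc3 at 0.90, Nudt11 at 0.85 and Pnma3 at 0.82, and with the component subtracted these still had 0.87, 0.83 and 0.77. For Dio2 they were Arhgap30 at 0.79, Pex5l at 0.77 and Hapln2, a link protein of myelinated axons, at 0.76. Vim was nearest to Jmjd4 at 0.84, Dnah11, another axonemal dynein heavy chain gene, at 0.82 and Nipal3 at 0.80. Nes, the dimmest member, had no close companion, its highest being Trim45 at 0.67, Chid1 at 0.66 and Pdzd2 at 0.66.

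For the 4 genes that followed the component, the nearest genes were Mst1, Myo18b and Eppin for Col23a1 (each 0.93) and Fam83c (0.90), Ppp1r14d (0.89) and Spata25 (0.89) for Crym. They were Macrod1 (0.91), Tlx3 (0.88) and Snord8 (0.88) for Foxj1, and Amdhd2 (0.84), Fam181a (0.82) and Tat (0.81), a liver enzyme gene, for Rax. The r of these 12 neighbours was lower with the component subtracted, at 0.63 to 0.78. As the highest of 19936 values each, these correlations are larger than a pair fixed in advance would give.

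The Wfs1 level fell into separate clusters, with 10 arrays from 7.86 to 8.07 and 8 from 8.36 to 8.72, on either side of 8.2 log2 units. The lower side held 2 ko/KO, 2 ko/WT, 3 wt/KO and 3 wt/WT arrays. Because a measured level and no label divides these arrays, the sides cannot be taken as genotype groups. Whether they match the true genotypes is not known. They are described without a test of their difference. For all 8 genes the sides overlapped. Over all other genes 0.015% had no overlap (3 of 19936).

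Gpr50 and Crym were the members that differed most between the sides. Gpr50 had a lowest, median and highest level of 7.93, 8.13 and 8.56 on the 10 low-Wfs1 arrays and of 7.59, 7.995 and 8.19 on the 8 high-Wfs1 arrays. On 4 of the 10 it was above every high-Wfs1 array, and on 3 of the 8 below every low-Wfs1 array. Crym was at 7.16, 7.445 and 7.62 on the low side and at 6.96, 7.27 and 7.62 on the high side, with 3 of the 8 below every low-Wfs1 array. The difference of medians was -0.135 for Gpr50 and -0.175 for Crym (high minus low), larger in size than for 92.2% and 96.8% of all genes. These ranks are not scaled by spread, and the standard deviations of Gpr50 and Crym were above those of 94.3% and 86.0% of all genes. With the component subtracted, an alternative chosen after seeing the data, the low and high medians were 8.21 and 7.93 for Gpr50 and 7.38 and 7.26 for Crym. For Crym, 5 low-Wfs1 arrays then lay above every high-Wfs1 array, where 0 did on the deposited levels. How often other genes do so in this setting was not computed.

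The other 6 genes had medians that differed by at most 0.08 between the sides, with Foxj1 at 7.465 and 7.385, Vim at 9.575 and 9.505, and Rax at 6.69 and 6.685. Within the sides, 0 of 16 correlations with Wfs1 passed after adjustment (permutation on the low side, exact permutation on the high side, lowest adjusted p = 0.62). The largest was that of Vim on the 8 high-Wfs1 arrays, r = 0.62 (exact permutation p = 0.105) and rho = 0.64 (exact permutation p = 0.0939), with r = 0.72 without the 2 arrays farthest from the median of Wfs1. Foxj1 had r = 0.52 on the low side (permutation p = 0.124) and rho = 0.28 (permutation p = 0.419), with r = 0.63 without the 2 farthest arrays. Leaving out the 2 farthest arrays also moved r from 0.46 to 0.85 for Foxj1 and from 0.49 to 0.82 for Rax on the high side, and from 0.15 to -0.73 for Nes on the low side. The values of r within a side are therefore unstable, as each was computed from 10 or 8 arrays.

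**Figure D5:**
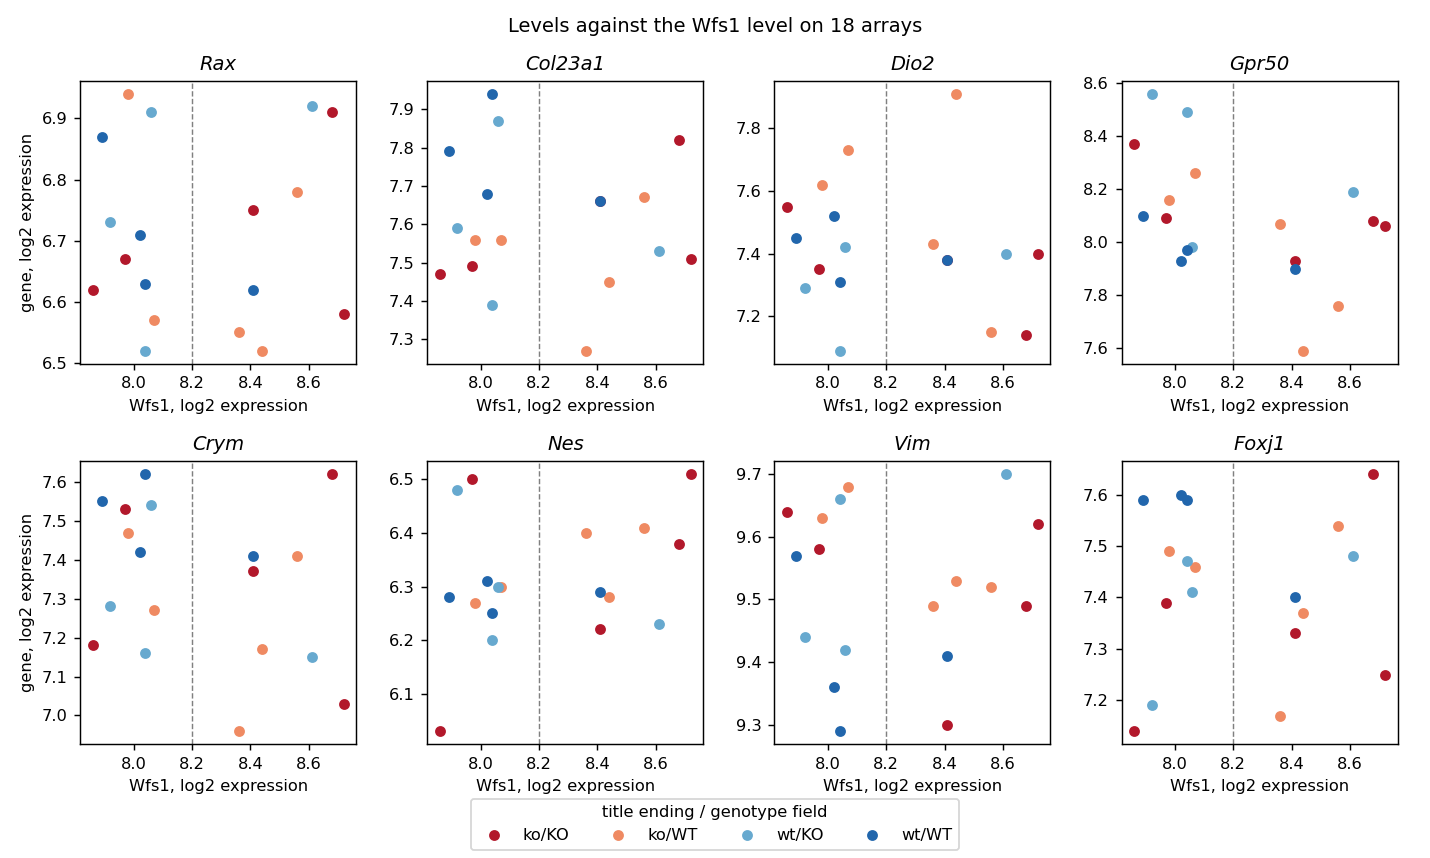
Log2 expression of each of the 8 genes (y axis) against that of Wfs1 (x axis) on 18 arrays coloured by title ending and genotype field; the dashed line is at 8.2. All 8 genes overlap between the sides, and Gpr50 lies above its highest high-Wfs1 value of 8.19 on 4 of the 10 low-Wfs1 arrays.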

How the data were processed

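Total RNA of 18 hypothalamus samples was extracted with Trizol, labelled with biotin and hybridised to 1 array each, per the labels' protocols. The authors deposited 1 log2 value for each probeset and array. No source states the scale, and log2 was inferred from the range of 1.11 to 14.54. RMA and MAS5 are both listed, per the submitters' processing notes, without saying which made the table. RMA, where used, sets arrays on a common distribution and compresses small differences at low intensity. Of 34760 probesets, 21640 had 1 gene symbol in the platform annotation, 1321 several and 11799 none. Entrez identifiers matched RefSeq (GRCm38.p6) for 21553, which changed 0 symbols. The brightest probeset of each gene was kept, leaving 19937 genes.

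Differences were fitted over all genes with limma (version 3.58.1, R 4.3.3) without covariates and adjusted by Benjamini-Hochberg over all genes, with 0.05 as the threshold. Correlations used two-sided permutation of arrays, 100000 resamples, or exact enumeration below 10 arrays. The scripts were tested on simulated data. Named genes were the 8 members, for each the 3 genes of highest r, and for each of 15 other lists the 2 of smallest p by ending and the 3 of highest mean r with the members, of which only some are described. The members and lists were chosen with earlier results of these data known. Alternatives are given in the closing section.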

Additional observations from a re-analysis of the deposited data

Results flagged for a closer look

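In 64 groups of 4 to 10 arrays (8 genes in 8 label groups), 3 values stood farther from the rest than Dixon's 95% limit allows, about what chance gives at 1 in 20. Foxj1 was 7.40 on wt/WT 4, where the other 3 wt/WT arrays lay at 7.59 or above. Vim was 9.30 on ko/KO 3, 0.19 below the next of the 10 arrays with the ending ko. Nes was 6.48 on wt/KO 2, 0.17 above the next of the 8 arrays with the ending wt.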

How the results depend on the processing

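The count of 0 called members held for each of the 5 label comparisons under quantile normalization, median centring, the mean of probesets, array weights and without any 1 array. With the dimmest 40% of genes left out, 6 of the 8 members were tested, not Rax and Nes, and 0 were called. Differences near 0 changed sign. With array weights Vim by field was -0.00548, and on the contradicting arrays Crym was 0.031 and Nes -0.015. Quantile normalization turned Rax on the agreeing arrays to 0.053. Without 1 array, by field Nes ran from -0.0175 to 0.0425 and Col23a1 from -0.072 to 0.012. On the agreeing arrays Rax ran from -0.0525 to 0.053 and Dio2 from -0.0975 to 0.005. On the contradicting arrays Foxj1 ran from -0.047 to 0.0775, Vim from -0.03 to 0.063, Crym from -0.08 to 0.059 and Nes from -0.0047 to 0.089. Gpr50 by field stayed between 0.18 and 0.26.

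The count of correlated pairs, 2 of 28, depended on the setting. It was 1 after quantile normalization, 4 on deviations from the label groups, 0 with the first component subtracted (chosen after seeing the data), 0 within the ending ko and 1 within the ending wt. Without 1 array it ran from 1 to 5, being 5 without wt/KO 3, 4 without wt/WT 2 and 1 without any of ko/KO 1, ko/KO 2, wt/WT 3 or ko/WT 5. Col23a1 and Crym kept r between 0.79 and 0.92 without 1 array. Vim and Foxj1 had r = 0.114 after quantile normalization, 0.111 on deviations from the label groups, 0.59 with the component subtracted and -0.196 to 0.013 without 1 array. The cause of these shifts was not tested. No paired analysis was possible because the labels give no replicate numbers shared between groups.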
